A study of Mus musculus with 15 samples.

Results

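Ribosome-bound mRNA of PN5 zygotes was compared with that of early 2-cell embryos in the Het arm of a ribosome profiling study of the mouse egg and embryo. The 6 libraries of this comparison, of 15 in the series, were chosen by their labels: 3 of PN5 zygotes and 3 of early 2-cell embryos. In both groups the female donors were of the B6D2F1 strain, heterozygous for Eif4e1b (which encodes a cap-binding protein of the eIF4E family found in eggs), and carried Rpl22-HA, a large-subunit ribosomal protein with an HA tag. The genotype is given for the mother only, and no untagged or wild-type group was used here, so both stages share the heterozygous allele and the tag. Each library pooled about 200 zygotes or about 100 early 2-cell embryos. Lysates received 100 units of RNase I over 45 min, tagged ribosomes were held on anti-HA beads for 4 h, and the protected RNA fragments were amplified for 22 PCR cycles. The other groups of the series are M2 eggs (2 Het and 2 KO libraries) and the KO zygotes (3) and KO early 2-cell embryos (2), and the KO groups are used below beside the Het values.

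The fertilised mouse egg runs on proteins and mRNAs made during oocyte growth, because its own genome is almost silent. The late zygote has pronuclei in an advanced stage. Between it and the early 2-cell stage the embryo completes the first mitosis, clears part of the maternal mRNA and goes on with zygotic genome activation. Which stored mRNAs sit on ribosomes in this window decides much of what protein the embryo makes, and ribosome-protected fragments count that occupancy without telling translation from the amount of mRNA.

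Depth limited every value that follows. The PN5 zygote libraries held 8614 to 36919 counts in protein-coding genes and the early 2-cell libraries 1059 to 7793. Replicate 3 of the early 2-cell group supplied 74.2% of that group's counts. Total counts were lower in all 3 early 2-cell libraries, 6.93-fold by geometric means (two-sided exact permutation test, p = 0.1, the smallest that 3 against 3 can give). Ribosomal RNA took 76.8% to 88.6% of a library, with the groups overlapping. Replicate 3 of the zygotes stands apart: it had 461 detected genes, 188 expected at a common depth of 1059 counts against 420 and 279 in its group, and 55.9% of its counts in 10 mRNAs. At that common depth the groups were close, with 295 ± 117 genes in zygotes and 287 ± 27.0 in early 2-cell embryos (SD, n = 3 each; exact permutation p = 1, adjusted p = 1 over 7 measures of composition). Whether the pools came from different animals is not stated in the labels, and p-values therefore cover only the spread between these samples, which may be technical.

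Marker transcripts were thin at both stages. Of 15 markers of the egg and zygote, 6 had a count, and 321 of their 364 zygote counts were Npm2, a nucleoplasmin of the egg, in replicate 2 alone. The 19 early 2-cell counts of these markers were Gdf9 (11) and Bmp15 (8), growth factors of the oocyte, in replicate 3 alone, and both genes were at 0 in the zygote libraries. Zp1, Zp2, Zp3, Tle6, Padi6 and Dppa3 had 0 counts in all 6 libraries. Of 14 markers of the 2-cell stage in the table, Zfp352 had 2 counts, in early 2-cell replicate 3, and Usp17lc had 3, in a zygote library. The Zscan4 members and Duxf3, which mark genome activation, were at 0. These markers therefore neither separate the stages nor speak for either label. The 11 markers of cumulus and granulosa cells gave 5 counts in the zygotes and 1 in the early 2-cell libraries, and 0 counts were seen for the 6 blood and 7 sperm markers. A wider list of 34 cumulus and granulosa markers had 9 with a count, 124 counts in zygotes and 8 in early 2-cell libraries. Its share reached 0.26% of a zygote library and 0.283% of an early 2-cell library. In a list of 24 blood and sperm markers only Prm3 had counts, 2 in early 2-cell replicate 3. Eif4e1b itself had 0 counts in every library of the series, so the genotype was not visible in these data.

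Levels are given as the percent of a library's protein-coding counts, after ribosomal and mitochondrial rows were set aside. They count fragments per mRNA with no correction for length, so the order of 2 mRNAs within a library reflects length as well as occupancy. A group with 0 counts was read as lying under 3 counts of its summed total, which is 0.0286% for the early 2-cell libraries and 0.00381% for the zygotes. A fold against such a group is given as a lower bound, and these limits cover counting error only. The early 2-cell floor rests on replicate 3: without it the floor is 0.111%, and every bound against that group is smaller.

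The stage comparison gave no single gene past the threshold. With edgeR's quasi-likelihood test on 464 genes, 0 were higher and 0 lower at a Benjamini-Hochberg adjusted p under 0.05 (0.0% of the tested genes), and the smallest adjusted p was 0.244. Without adjustment 69 genes (14.9%) had a p under 0.05, of which 40 (8.62%) were higher and 29 (6.25%) lower in early 2-cell embryos. DESeq2 gave 225 of these 464 genes no adjusted p, so they could not be called. As a share of all 464, it called 4 higher (0.862%) and 47 lower (10.1%), and 15 of the 47 had no early 2-cell count. With limma-voom 6 were called higher (1.29%) and 2 lower (0.431%). Plcd4, Anln, Smarca4 and Top1 were the 4 genes that both DESeq2 and limma-voom called. A fit of edgeR to only the 6 libraries, which tested 83 genes, called 1 higher (Plcd4) and 2 lower (Acbd3 and Ice1, which encodes a factor of small nuclear RNA transcription).

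The median of all tested genes moved with the scaling and the tool. On protein-coding totals the median log2 fold change over all tested genes was -0.39, with 205 higher and 254 lower. TMM factors moved that median to -1.64, with 144 higher and 315 lower, and turned the genes at an unadjusted p under 0.05 into 13 higher and 71 lower. DESeq2 gave a median of -1.37 and whole library totals gave -2.0. With limma-voom, a change of tool, the median was 0.64. When genes without counts in a group were set at the floor, the median log2 ratio of mean shares was 0.19.

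Counting genes whose 3 libraries of each stage do not overlap gave 28 higher in early 2-cell embryos (6.03% of those tested) and 47 lower (10.1%). Of the 28, 15 had a single count in some early 2-cell library, so their lack of overlap rests on 1 count there. Of the 47, 23 had no count in any early 2-cell library and 8 had a count in all 3. TMM factors gave 13 (2.8%) and 75 (16.2%). Without zygote replicate 3 the lower count was 121, and without early 2-cell replicate 1 it was 74. The higher count was 52, 51 or 47 when early 2-cell replicate 1, 2 or 3 was left out. Among the 48 genes whose mean over the 6 libraries reached 0.283%, the floor of the shallowest library, 6 were higher without overlap and 15 lower.

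**Figure D1:**
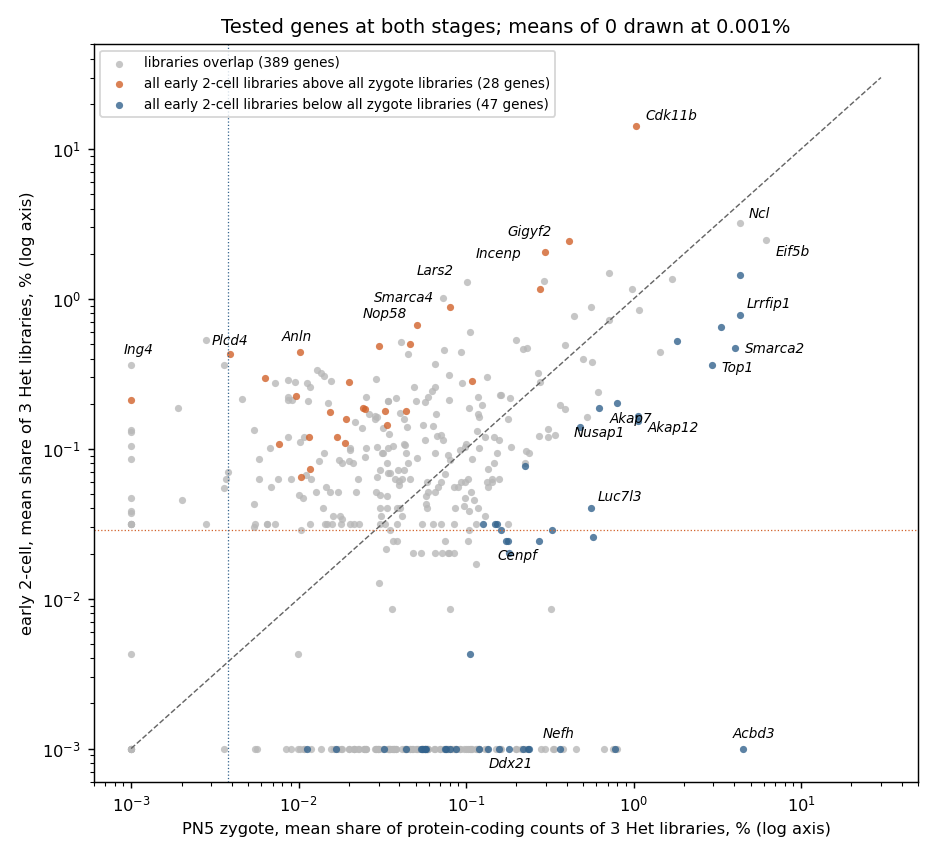
Mean share of protein-coding counts of each tested gene in 3 early 2-cell Het libraries (vertical, %, log axis) against 3 PN5 zygote Het libraries (horizontal, %, log axis). Points are genes, orange and blue where the libraries of the stages do not overlap (28 and 47 genes), the dashed line is equality, dotted lines are the summed floors of 0.0286% and 0.00381%, and means of 0 are drawn at 0.001%. Cdk11b stands at the top at 14.3%, and Acbd3 lies farthest right among genes without an early 2-cell count.

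The lists of leading mRNAs of the stages were shared in part. The 10 leading mRNAs of the PN5 zygote took 37.5% of its protein-coding counts and 11.3% of those of early 2-cell embryos. The 10 leaders of the early 2-cell embryo took 31.3% there and 19.4% in zygotes. Each list was picked by the shares of its own stage, so a smaller share at the other stage follows in part from that choice. Log2 shares correlated at 0.549 to 0.62 among zygote libraries and at 0.365 to 0.415 among early 2-cell libraries. Between the stages they correlated at 0.0861 to 0.469, which overlaps the early 2-cell replicates. Eif5b, Nexn, Ncl and Metap2 were on both lists, and 22 of the 50 leading genes were shared.

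Eif5b (chromosome 1, 37998010 to 38055579 on GRCm38), which joins the ribosomal subunits at the start of translation, took 3.49%, 3.39% and 11.7% of the 3 zygote libraries. In the early 2-cell libraries it took 3.68%, 2.18% and 1.59%. The groups overlap, since zygote replicate 3 alone is far higher, and the log2 fold change was -1.32 (SE 0.67, edgeR adjusted p = 0.362). Ncl, for nucleolin of the nucleolus, was at 3.93%, 4.93% and 4.07% in zygotes and at 5.67%, 2.54% and 1.42% in early 2-cell embryos, with overlap and a log2 fold change of -0.43 (SE 0.64, edgeR adjusted p = 0.690). Metap2, which trims the first methionine from new proteins, gave -0.35 (SE 0.85, edgeR adjusted p = 0.824), and its sign turned without early 2-cell replicate 3 (0.050). DESeq2 called Eif5b and Ncl lower (adjusted p = 0.000478 and 0.0228).

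Acbd3 (chromosome 1, 180726043 to 180754204), a Golgi protein that recruits kinases and other partners to the membrane, had the sharpest contrast among the leading mRNAs. It took 2.24%, 4.76% and 6.56% of the zygote libraries and had 0 counts in all 3 early 2-cell libraries. That is 2972 counts against 0, at least 158-fold by the floor and 40.9-fold without early 2-cell replicate 3 (edgeR adjusted p = 0.297, DESeq2 adjusted p = 0.0179). In the fit to only the 6 libraries its edgeR adjusted p was 0.00155. In the KO arm it took 4.37%, 0% and 5.89% of the zygote libraries and was again at 0 in both early 2-cell libraries. Among M2 eggs it was at 0 in Het replicate 1, which held 20900 protein-coding counts, and in KO replicate 1. In M2 replicate 2 it was at 1.77% (Het) and 2.12% (KO). A count of 0 was therefore not confined to early 2-cell embryos or to shallow libraries, and the bound does not cover such spread.

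Lrrfip1, a cytoplasmic protein that binds nucleic acid and actin regulators, took 2.54%, 2.74% and 7.65% in zygotes and 1.13%, 1.03% and 0.167% in early 2-cell embryos. All early 2-cell libraries lie below all zygote libraries, with the lowest value in the deepest early 2-cell library. The log2 fold change was -2.50 (SE 0.84, edgeR adjusted p = 0.297). Nexn, for the actin-binding protein nexilin, was at 3.93%, 2.90% and 6.13% against 2.27%, 2.00% and 0.0642%, and its log2 fold change was -1.60 (SE 0.89, edgeR adjusted p = 0.382). Map1b, a microtubule-associated protein, was at 1.77%, 1.39% and 2.30% against 0.661%, 0.847% and 0.0642%, again without overlap.

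**Figure D2:**
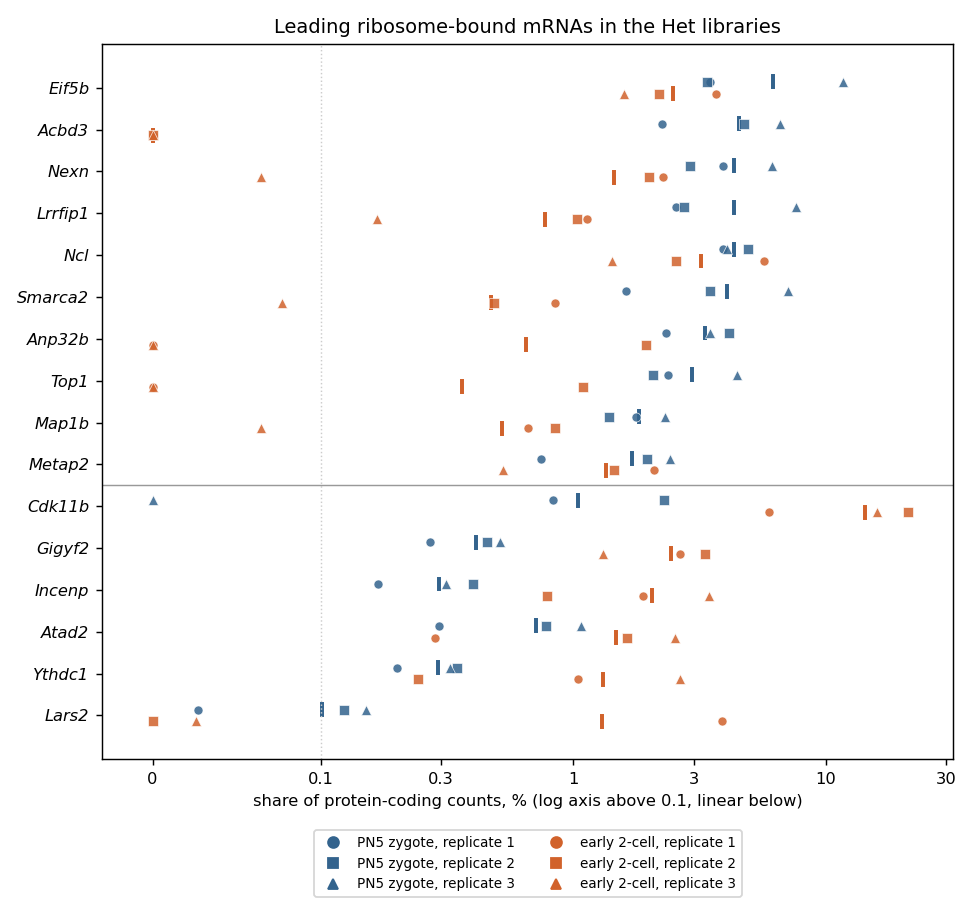
Share of protein-coding counts (%, log axis above 0.1 and linear below) of the 16 mRNAs that lead either stage, with the 10 zygote leaders above the grey line. Symbols are single Het libraries, bars the means of 3, blue for PN5 zygotes and orange for early 2-cell embryos; Acbd3 is at 0 in the 3 orange libraries, and Cdk11b lies between 5.95% and 21.1% there.

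Cdk11b took the largest share of counts in the early 2-cell libraries. The gene (chromosome 4, 155624841 to 155649935) encodes a cyclin-dependent kinase tied to transcription, splicing and mitosis. Its shares were 0.834%, 2.29% and 0% in zygotes and 5.95%, 21.1% and 15.9% in early 2-cell embryos. Every early 2-cell library lies above every zygote library, and within each stage the values spread widely. Its counts were 0 in zygote replicate 3, in M2 KO replicate 1 and in both KO early 2-cell libraries, while the 8 other libraries outside this group held 97 to 766 counts. How reads that match several places were assigned is not known here, so its share cannot be told apart from misplaced reads. The log2 fold change was 3.77 (SE 1.71, edgeR adjusted p = 0.328), from 2.24 with TMM factors to 5.30 with limma-voom. Taking its counts out of the totals left 0 genes called by edgeR.

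Gigyf2 (chromosome 1, 87326931 to 87450810), a partner of the cap-binding repressor 4EHP, took 0.271%, 0.455% and 0.511% in zygotes and 2.64%, 3.33% and 1.31% in early 2-cell embryos. The groups do not overlap and the spread within each is modest, with a log2 fold change of 2.55 (SE 0.82, edgeR adjusted p = 0.297). Among KO libraries the order was alike, at 0.364%, 0.229% and 0.370% against 1.30% and 1.15%. Ythdc1, a nuclear reader of methylated adenosine in RNA, was at 0.200%, 0.346% and 0.325% against 1.04%, 0.242% and 2.64%, where early 2-cell replicate 2 overlaps the zygotes. Atad2, a bromodomain ATPase of chromatin, gave a log2 fold change of 1.07 (SE 0.95), and TMM factors turned its sign (-0.13). Lars2, a mitochondrial leucyl-tRNA synthetase, reached the early 2-cell leaders through 1 library (3.87%, 0% and 0.0257%), and its log2 fold change of 3.67 became -2.48 without that library.

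The genes with the smallest p among those higher in early 2-cell embryos did not pass the edgeR test. Plcd4 (chromosome 1, 74541975 to 74565977), a phospholipase C of the delta class, had 1 count in the zygotes, in replicate 3, which is 0.0116%. It was at 0.189%, 0.181% and 0.911% in the early 2-cell libraries, 76 counts in all. Its log2 fold change was 7.25 (SE 2.05, edgeR adjusted p = 0.297; DESeq2 adjusted p = 0.0228; limma-voom adjusted p = 0.0237). Ncoa2, a coactivator of nuclear receptors, was at 0.00542%, 0.00301% and 0% against 1.51%, 0% and 0.0898%, so 1 early 2-cell library carried most of it. Rbm28, an RNA-binding protein of the nucleolus, reached 2.54% in early 2-cell replicate 2, while replicate 1 at 0.0944% lay inside the zygote range of 0.0232% to 0.151%. Ing4, a reader of methylated histone H3, had 0 zygote counts and 17 early 2-cell counts in 2 of 3 libraries, at least 95.9-fold by the floor. Of the 17, 15 were in replicate 2, and the bound was 24.8-fold without it, and 50.9-fold and 55.5-fold without zygote replicate 1 or 2.

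Among those lower, Nefh (chromosome 11, 4938754 to 4948064), which encodes the heavy neurofilament protein, had the smallest p. It took 0.192%, 0.440% and 0.464% of the zygote libraries and had 0 counts in the 3 early 2-cell libraries, at least 12.8-fold lower, or 3.30-fold without early 2-cell replicate 3 (edgeR adjusted p = 0.244, DESeq2 adjusted p = 7.97e-05). Ktn1, a kinesin-binding protein of the endoplasmic reticulum, was at 0.344%, 0.256% and 0% against 0 throughout, at least 7.00-fold lower, but 1.81-fold without early 2-cell replicate 3 and 4.48-fold without zygote replicate 1. Zc3h15, a zinc-finger protein of translating ribosomes, was at 0.209%, 0.163% and 0.0348% against 0 throughout, at least 4.74-fold lower, but 1.22-fold without early 2-cell replicate 3. At 0.0348% a library as shallow as early 2-cell replicate 1, whose own floor is 0.283%, could have missed the gene.

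The catalytic subunits of the BAF chromatin remodelling complex had values that differed between the stages in opposite directions, with neither passing the edgeR test. BAF slides and evicts nucleosomes with 1 of 2 alternative ATPases, BRG1 from Smarca4 or BRM from Smarca2, and maternal BRG1 is known to be needed for genome activation in the mouse. Smarca2 (chromosome 19, 26605073 to 26778321) took 1.62%, 3.47% and 7.08% of the zygote libraries and 0.850%, 0.484% and 0.0770% of the early 2-cell ones. Smarca4 (chromosome 9, 21616106 to 21704230) took 0.0758%, 0.0241% and 0.139% against 0.567%, 1.15% and 0.937%. Neither gene's libraries overlap between stages. The log2 fold changes were -3.16 (SE 1.01) for Smarca2 and 3.49 (SE 1.15) for Smarca4, each at an edgeR adjusted p of 0.297. DESeq2 called both (adjusted p = 0.000106 and 0.0244), and limma-voom called Smarca4 (adjusted p = 0.0428) but not Smarca2 (0.0744). Both signs held under every scaling and tool, and with each library left out.

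Their ratio within a library is free of the scaling. Smarca4 counts over Smarca2 counts were 0.0467, 0.00695 and 0.0197 in the zygote libraries and 0.667, 2.38 and 12.2 in the early 2-cell libraries. It was above 1 in 2 of the 3 early 2-cell libraries. Those ratios rest on few counts: 6 over 9, 19 over 8 and 73 over 6 in replicates 1, 2 and 3. The geometric means differ 144-fold, and the groups do not overlap (two-sided exact permutation test, p = 0.1, the smallest possible with n = 3 each). The ratio was chosen after its values were seen. In the M2 Het eggs it was 0.411 and 0.0449, so the first of these lies closer to the early 2-cell libraries than any zygote library does. In the KO arm the ratio was 0.0407, 0.250 and 0.0323 in zygotes and 0.455 and 0.0769 in early 2-cell embryos. These lie 2.71-fold apart with overlap (exact permutation p = 0.4). With 2 against 3 libraries the smallest possible p is larger than with 3 against 3, so the p-values of the arms are not on 1 scale. The difference between the arms in this ratio was not tested; for the single genes it had an unadjusted edgeR p of 0.0814 for Smarca2 and 0.210 for Smarca4 (adjusted p = 0.802 and 0.997).

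**Figure D3:**
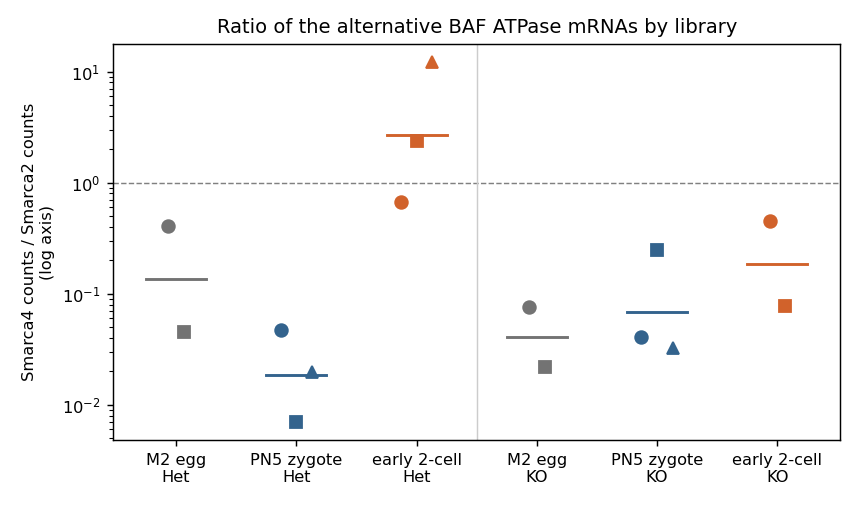
Counts of Smarca4 divided by counts of Smarca2 in each library (log axis) for the 6 groups of the series, with symbols for replicates, bars for geometric means and a dashed line at 1. The 3 early 2-cell Het libraries (0.667 to 12.2) lie above the 3 PN5 zygote Het libraries (0.00695 to 0.0467), while the KO libraries of these stages overlap.

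Other remodellers did not share 1 direction. Of 68 listed members, 20 were tested, 9 higher and 11 lower with 0 called, and the median log2 fold change was -0.50 against -0.39 over all tested genes (-1.63 against -1.64 with TMM factors). At an unadjusted p under 0.05 the higher members were Smarca4 and Ep400, the scaffold of the TIP60 complex, and the lower one was Smarca2. Ep400 was at 0.0135%, 0.0151% and 0% against 0.755%, 0% and 0.0770%, so its groups overlap through 1 early 2-cell library without a count. Without Smarca2 the list took 3.97%, 2.01% and 1.96% of the zygote libraries and 3.21%, 3.02% and 4.48% of the early 2-cell libraries.

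Genes of the spindle and of cytokinesis differed among themselves. Of 84 listed members of the spindle, kinetochore, cohesin and cytokinesis machinery, 34 had a count and 18 were tested, with 9 higher, 7 lower and 0 called. Of the 18, 5 were higher and 3 lower with an unadjusted p below 0.05, beside 8.62% and 6.25% of all tested genes. The median log2 fold change was 0.18, and 0.00 with TMM factors. The list's summed share was 2.67%, 2.90% and 2.95% in zygotes and 5.67%, 2.12% and 7.60% in early 2-cell embryos, so replicate 2 lies below the zygotes.

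Incenp (chromosome 19, 9872295 to 9899489), the scaffold of the Aurora B passenger complex, was at 0.168%, 0.401% and 0.313% against 1.89%, 0.786% and 3.46%. Anln, for the cytokinetic ring protein anillin, was at 0.0217%, 0.00904% and 0% against 0.472%, 0.121% and 0.731%. Tpx2, which activates Aurora A on spindle microtubules, was at 0.0542%, 0.0361% and 0% against 0.661%, 0.484% and 0.308%. For these 3 genes every early 2-cell library lies above every zygote library, with log2 fold changes of 2.80 (SE 1.21), 5.21 (SE 1.70) and 3.88 (SE 1.51) and the same edgeR adjusted p of 0.297. They were named for their share or small p, so their lack overlap follows in part from that choice. Libraries did not overlap for 5 higher and 3 lower of the 18 tested members, beside 6.03% and 10.1% of all tested genes. Anln was called higher by DESeq2 (adjusted p = 0.0177) and by limma-voom (adjusted p = 0.0428). Kif20b, a kinesin of the late midzone, was at 0.0515%, 0.0361% and 0.0348% against 0.189%, 0% and 1.35%, and its log2 fold change of 3.68 was 1.07 without replicate 3. Pds5b, a cohesin regulator taken here for its lack of overlap after its values were seen, was at 0.0135%, 0.0120% and 0.0348% against 0.0944%, 0.0605% and 0.680%, again with 1 count each in replicates 1 and 2.

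Of the 7 lower members, those at an unadjusted edgeR p under 0.05 were a kinetochore motor, a kinetochore protein and a spindle-bundling protein. Cenpe, the kinesin that carries chromosomes to the spindle equator, was at 0.371%, 0.111% and 0% in zygotes and at 0 in the early 2-cell libraries, at least 5.63-fold lower, but 1.45-fold without early 2-cell replicate 3 and 1.95-fold without zygote replicate 1. The libraries of Cenpe overlap through its 0 in zygote replicate 3. Cenpf, Nusap1 and Septin11, the 3 lower members without overlap, were also taken after their values were seen. Septin11 had 99 zygote counts and 1 early 2-cell count. Its log2 fold change was -2.74 (SE 1.94, edgeR adjusted p = 0.412, DESeq2 adjusted p = 0.0285). Cenpf, which sits at the outer kinetochore, was at 0.252%, 0.142% and 0.139% against 0%, 0.0605% and 0.0128%. Nusap1, which bundles microtubules near chromosomes, was at 0.528%, 0.979% and 1.71% against 0.0944%, 0.121% and 0.244%, with a log2 fold change of -2.72 (SE 1.10, edgeR adjusted p = 0.297; DESeq2 adjusted p = 0.00478). In the KO arm Nusap1 was at 0.0390%, 0.0762% and 0.163% against 0.185% and 0.264%, and the difference between the arms had an unadjusted edgeR p of 0.0239 (adjusted p = 0.708).

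A-kinase anchoring proteins tether protein kinase A and other enzymes to places in the cell. Of 18 listed members 7 had a count and 4 were tested, 0 higher and 4 lower with 0 called, and the median log2 fold change was -2.91 (-3.92 with TMM factors). Akap7 (chromosome 10, 25169090 to 25299217) was at 0.634%, 0.949% and 0.813% in zygotes and at 0.283%, 0.181% and 0.141% in early 2-cell embryos. Akap12, known as gravin, was at 0.615%, 0.789% and 1.80% against 0%, 0.484% and 0.0128%. Akap9, of the centrosome and Golgi, was at 0.122%, 0.0964% and 0.244% against 0.0944%, 0% and 0%. In all 3 genes the libraries do not overlap, which is 3 of the 4 tested members, beside 10.1% of all tested genes. For Akap9 this rests on 1 early 2-cell count. Early 2-cell replicate 2 has a floor of 0.181%, so its 0 does not set it below zygote values of 0.122% or 0.0964%. The log2 fold change of Akap7 was -2.02 (SE 0.92, edgeR adjusted p = 0.328; DESeq2 adjusted p = 0.00155). The list as a whole took 1.48%, 1.89% and 2.86% of the zygote libraries and 0.378%, 0.665% and 0.436% of the early 2-cell libraries. In the KO arm Akap7 overlapped, at 0.585%, 0.229% and 0.365% against 0.124% and 0.617%, and the difference between the arms had an edgeR adjusted p of 0.922.

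In the list of the endoplasmic reticulum, Golgi and chaperones the tested members lay lower. Of 68 listed members 8 were tested, 0 higher and 8 lower with 0 called, and the median log2 fold change was -4.23 (-2.21 with genes without counts at the floor, against 0.19 over all). The summed share was 3.37%, 8.61% and 6.86% in zygotes and 0.283%, 0.121% and 0.924% in early 2-cell embryos, without overlap. Acbd3 made up 2972 of the 4695 zygote counts of the list, and without it zygote replicate 3 (0.302%) overlapped the early 2-cell libraries. Golgb1, for the Golgi tether giantin, was at 0.181%, 0.136% and 0.128% against 0.0944%, 0% and 0%. Hsp90aa1, the inducible HSP90, was at 0.309%, 0.0783% and 0% against 0 throughout, at least 4.52-fold lower, but 1.17-fold without early 2-cell replicate 3 and 1.37-fold without zygote replicate 1. Canx, for the chaperone calnexin, had 791 counts that all lay in zygote replicate 2 (2.38%), and DESeq2 called it lower from that 1 library (adjusted p = 2.33e-05).

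The cytoskeletal list followed its leading members. Of 58 members 18 were tested, 6 higher and 12 lower with 0 called, and the median log2 fold change was -1.72 (-2.85 with TMM factors). Its summed share was 11.6%, 8.21% and 17.3% in zygotes and 5.19%, 6.35% and 1.10% in early 2-cell embryos, and without Nexn it was 7.66%, 5.31% and 11.2% against 2.93%, 4.36% and 1.04%. Early 2-cell replicate 3 is the lowest of the 6 in both. Add1, for adducin of the spectrin lattice, went the other way, at 0.0108%, 0.0120% and 0.0232% against 0.0944%, 0.0605% and 0.372%, where replicates 1 and 2 hold 1 count each.

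The lists of DNA-bound and histone-handling proteins had lower summed shares in all 3 early 2-cell libraries, and in both lists the libraries overlap once the leading gene is taken out. Of 27 DNA-bound chromatin proteins 5 were tested, 0 higher and 5 lower with 0 called, and the summed share was 5.74%, 6.02% and 4.79% against 1.89%, 1.27% and 0.0385%. Without Top1 it was 3.36%, 3.95% and 0.360% against 1.89%, 0.181% and 0.0385%, with overlap. Top1 (chromosome 2, 160645897 to 160722764), for the topoisomerase that relaxes DNA ahead of polymerases, was at 2.38%, 2.07% and 4.43% against 0%, 1.09% and 0%. All 18 of its early 2-cell counts were in replicate 2, and its log2 fold change was -3.04 (SE 1.32, edgeR adjusted p = 0.297; DESeq2 adjusted p = 0.0187; limma-voom adjusted p = 0.0245). Without that replicate edgeR called it, with Anp32b, as 2 lower genes. Dek, an abundant chromatin protein, was at 0.788%, 1.22% and 0% against 0 throughout, at least 23.4-fold lower (6.05-fold without early 2-cell replicate 3, 13.8-fold without zygote replicate 2), and Psip1, which reads methylated H3K36, was at 2.19%, 2.14% and 0% against 1.32%, 0% and 0%. Both lack counts in zygote replicate 3.

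Of 51 histone variants and chaperones 14 were tested, 5 higher and 9 lower with 0 called, with a median log2 fold change of -1.70. The summed share was 5.41%, 6.74% and 5.67% against 1.23%, 3.15% and 3.81%. Anp32b, an acidic histone chaperone, led the list in zygotes at 2.32%, 4.15% and 3.49% and was at 0%, 1.94% and 0% in early 2-cell embryos, again with all its counts in replicate 2 (log2 fold change -2.37, SE 1.68, edgeR adjusted p = 0.415). Without Anp32b the list took 3.09%, 2.59% and 2.17% against 1.23%, 1.21% and 3.81%, with overlap. Enzymes of DNA methylation and histone modification were even, with 9 higher and 9 lower of 18 tested, 0 called, and shares of 2.63% ± 0.671 and 2.57% ± 0.624 (SD, n = 3 each). In that list Ncor1, a corepressor scaffold, was at 0.439%, 0.401% and 0% against 0 throughout, at least 9.80-fold lower (2.53-fold without early 2-cell replicate 3), and Kdm7a, a histone demethylase, had 5 early 2-cell counts against 0.

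**Figure D4:**
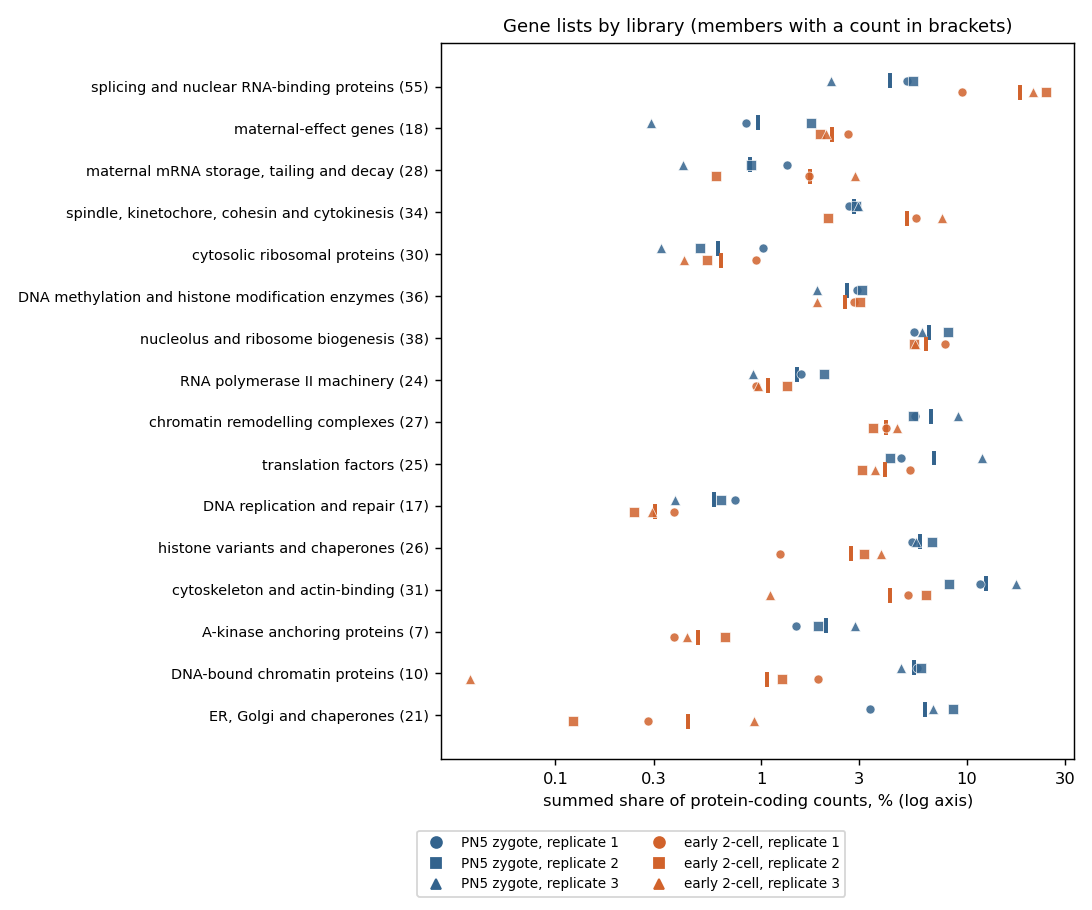
Summed share of protein-coding counts (%, log axis) of the 16 gene lists with at least 3 tested members, by library, with the number of members that had a count in brackets and bars for the means of 3. Lists are ordered by the ratio of the means, from splicing and nuclear RNA-binding proteins (4.25% in zygotes and 18.2% in early 2-cell embryos) down to endoplasmic reticulum, Golgi and chaperones (6.28% and 0.443%).

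The splicing and nuclear RNA-binding list had the largest share of the early 2-cell libraries among the lists, through 1 gene. Its summed share was 5.12%, 5.45% and 2.19% in zygotes and 9.44%, 24.2% and 20.9% in early 2-cell embryos. Without Cdk11b it was 4.29%, 3.16% and 2.19% against 3.49%, 3.15% and 5.06%, with overlap. Of 33 tested members 15 were higher and 17 lower with 0 called, and the median log2 fold change was -0.07. Tra2b, a splicing activator, was at 0.0108%, 0.0181% and 0% against 0.189%, 0.0605% and 0.423%, where 0.0605% is 1 count. Luc7l3, a component near the U1 particle, was at 0.572%, 0.789% and 0.302% against 0%, 0.121% and 0%, with a log2 fold change of -4.02 (SE 1.55, edgeR adjusted p = 0.297; DESeq2 adjusted p = 0.00478). Of the 33 tested members 3 were higher and 2 lower without overlap, beside 6.03% and 10.1% of all tested genes.

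Genes of ribosome biogenesis had overlapping summed shares at the stages. Of 117 listed members 22 were tested, 11 higher and 10 lower with 0 called, and the summed share was 6.58% ± 1.35 in zygotes and 6.33% ± 1.31 in early 2-cell embryos (SD, n = 3 each). Nop58, a core protein of box C/D particles that methylate rRNA, was at 0.0108%, 0.0843% and 0.0580% against 0.378%, 0.121% and 1.51%, a log2 fold change of 3.74 (SE 1.26, edgeR adjusted p = 0.297) that was 2.25 without early 2-cell replicate 3. KO libraries held it at 0.0520%, 0.0169% and 0.0300% against 0.803% and 0.176%. Ppan, a factor for the large subunit, had 2 zygote and 25 early 2-cell counts, and limma-voom called it higher (adjusted p = 0.0428). Ddx21 (chromosome 10, 62580247 to 62602298), a helicase of rRNA transcription and processing, was at 0.222%, 0.181% and 0.302% against 0 throughout, at least 8.23-fold lower, or 2.12-fold without early 2-cell replicate 3 (edgeR adjusted p = 0.297, DESeq2 adjusted p = 0.000106). Zcchc17, a nucleolar zinc-knuckle protein, had 342 counts in zygote replicates 1 and 2 only.

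Among genes of translation, Eif5b held most of the counts of the translation factors. Of 82 cytosolic ribosomal proteins 30 had a count and 3 were tested, and the list took 0.617% ± 0.361 of zygote and 0.637% ± 0.273 of early 2-cell counts (SD, n = 3 each). Of 72 translation factors 13 were tested, 5 higher and 8 lower with 0 called. The translation factors took 4.79%, 4.22% and 11.8% of zygote and 5.29%, 3.09% and 3.59% of early 2-cell counts. Their share without Eif5b was 1.31%, 0.831% and 0.0813% in zygotes and 1.61%, 0.907% and 2.00% in early 2-cell embryos. Eif3a, the largest subunit of the initiation factor eIF3, was at 0.436%, 0.208% and 0.0116% against 0 throughout, at least 7.65-fold lower (1.98-fold without early 2-cell replicate 3, 3.84-fold without zygote replicate 1), though 1 KO early 2-cell library held it at 2.29%. Abcf1, which acts with eIF2 at initiation, was at 0.0515%, 0.0843% and 0% against 0%, 0.0605% and 1.23%, and its log2 fold change of 3.26 became -0.45 without early 2-cell replicate 3.

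Lists that describe the maternal programme and its end had few testable members. Of 74 genes of maternal mRNA storage, tailing and decay 28 had a count and 8 were tested, 3 higher and 5 lower with 0 called. Tut7, which adds uridines to the tails of maternal mRNAs, was at 0.0460%, 0.00602% and 0.0464% against 0.378%, 0.0605% and 0.103%, without overlap but with 1 count in early 2-cell replicate 2 (log2 fold change 2.38, SE 1.51, edgeR adjusted p = 0.394). Of 58 maternal-effect genes, whose loss in the mother arrests the embryo, 5 were tested and all 5 were higher with 0 called, but TMM factors made 3 of them lower. Smarca4 was the only one of these at an unadjusted p under 0.05. The list's summed share was 0.845%, 1.75% and 0.290% against 2.64%, 1.94% and 2.07%, without overlap. Smarca4 alone took 0.0758%, 0.0241% and 0.139% against 0.567%, 1.15% and 0.937%, and without it the libraries overlap. That overlap comes through zygote replicate 2, whose list share was 0.786% without Npm2. Of 47 genes of zygotic genome activation 6 had a count, and their share was 0.0561% ± 0.0155 in zygotes and 0.0785% ± 0.0719 in early 2-cell embryos (SD, n = 3 each).

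In the RNA polymerase II machinery 9 of 80 members were tested, 4 higher and 5 lower with 0 called. Taf3 and Taf7 are subunits of the promoter-binding factor TFIID. Taf7 was at 0.157%, 0.268% and 0.546% against 0%, 0.0605% and 0.0257%, with a log2 fold change of -3.40 (SE 1.37, edgeR adjusted p = 0.297; DESeq2 adjusted p = 0.00190). Taf3 was at 0.293%, 0.675% and 0% against 0%, 0% and 0.0257%. Taf3 in the KO arm was at 0.117%, 0.0593% and 0.110% against 2.04% and 0.176%, and the difference between the arms had an unadjusted edgeR p of 0.00293 (adjusted p = 0.681). Of 44 proteasome subunits 1 was tested, Psmd1, at 0.103%, 0.253% and 0.186% against 0%, 0.0605% and 0%. DNA replication and repair had 3 higher and 3 lower of 6 tested, with shares of 0.588% ± 0.186 in zygotes and 0.305% ± 0.0684 in early 2-cell embryos (SD, n = 3 each). The pluripotency and the cell cycle lists had 1 tested member each, the zona pellucida and oocyte list 2, and the subunits of oxidative phosphorylation 0, none of them called.

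**Figure D5:**
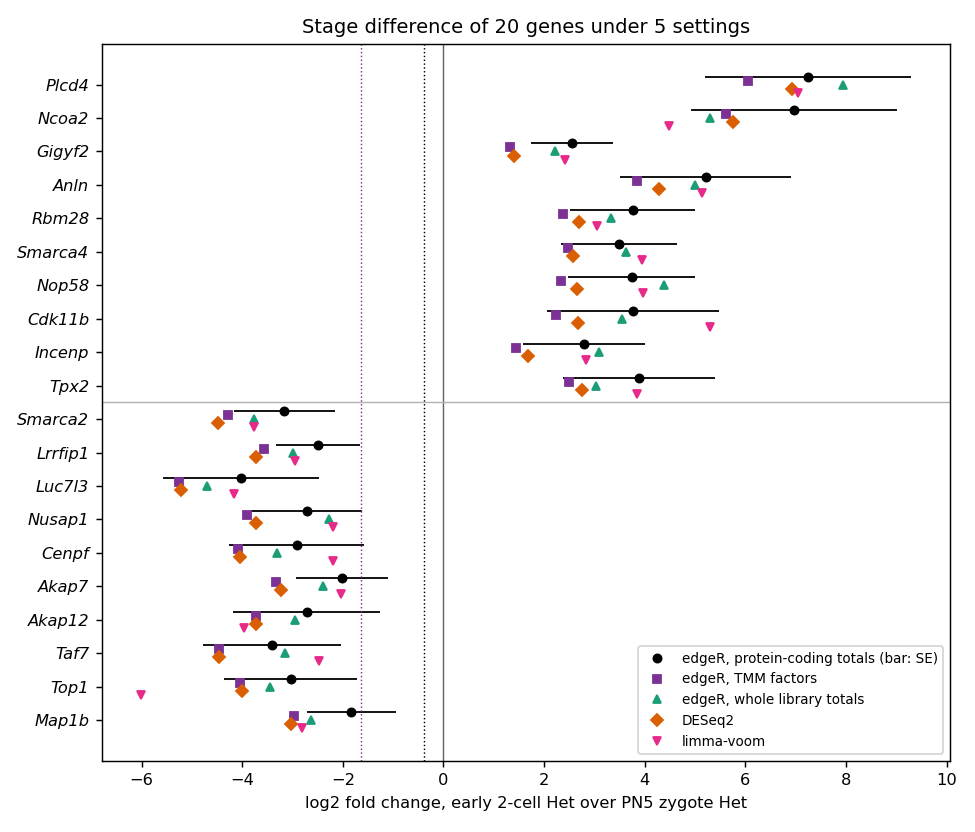
Log2 fold change of early 2-cell Het over PN5 zygote Het for 20 genes, picked after their values were seen, under 5 settings, with SE bars on the edgeR values from protein-coding totals. Dotted lines are the medians over all tested genes on protein-coding totals (-0.39) and with TMM factors (-1.64); these 20 keep their sign, while Atad2, which is not drawn, turns to -0.13 with TMM factors.

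The same passage in embryos of KO mothers shares no library with the Het comparison. Among all tested genes 63 were higher without overlap in the KO arm (13.6%) and 49 lower (10.6%), from 2 early 2-cell against 3 zygote libraries. Of the 28 Het genes that were higher without overlap, 11 were so in the KO arm, which is 39.3% of the Het list and 17.5% of the KO list, and 5 were lower there. Of the 47 lower, 6 were so in the KO arm, 12.8% and 12.2% of the lists, and 4 were higher. The difference between the arms passed for 0 genes with edgeR (smallest adjusted p = 0.402; 32 genes, or 6.9%, at an unadjusted p under 0.05), and for 0 with DESeq2 and with limma-voom.

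The gene with the smallest p for that difference was Ncor1, at 0 in the 3 KO zygote libraries and at 1.11% and 0% in the KO early 2-cell libraries (unadjusted p = 0.000867, adjusted p = 0.402). Cdk11b was at 1.42%, 0.822% and 1.92% in KO zygotes, against 0.834%, 2.29% and 0% in Het zygotes, and at 0 in both KO early 2-cell libraries. It was also at 0 in M2 KO replicate 1, so a count of 0 was not confined to KO early 2-cell embryos. For Cdk11b the difference between the arms had an unadjusted edgeR p of 0.00517 (adjusted p = 0.708). The floor over both KO early 2-cell libraries is 0.109%, which is below the lowest Het early 2-cell value of 5.95%.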

How the data were processed

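Ribosome-protected fragments from 15 libraries were analysed, and 6 of them make up the Het stage comparison. The deposited table gives estimated counts for each gene as unscaled whole numbers. The submitters' processing notes list STAR 2.7.6a, cutadapt, deepTools 3.5.1, StringTie 2.1.4 and the build GRCm38. How the counts were made, and how reads that match several genes were placed, is not stated in the labels or file header. A rounding step on reading left the whole numbers unchanged.

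Of 55490 genes, 39101 matched RefSeq (GRCm38.p6) by symbol and 117 by an older symbol, and the 16272 others took 0.227% to 0.662% of a library. Ribosomal and mitochondrial rows were dropped, which left 21413 protein-coding genes. In edgeR 4.0.16 (R 4.3.3), filterByExpr (minimum count 10) kept 464 genes. A robust quasi-likelihood model with 6 group means and 9 residual degrees of freedom was fitted to all 15 libraries on protein-coding totals, with calls at a Benjamini-Hochberg p below 0.05. Fold changes are fitted, and levels are mean shares. Library composition was compared by exact permutation tests (SciPy 1.17.1). The procedure was run on simulated counts, at the depth of these libraries and at a far greater depth. How many true differences it finds at the real depth is not given here. Replicate numbers are not stated to pair libraries, so no block was used.

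The rule for named genes took the 10 leading mRNAs of each stage, the 8 smallest p in each direction among genes of at least 0.1% mean share in the higher group, and up to 4 members of each of 24 lists by p; genes outside it are marked in the text. The comparison, the lists and the rule were chosen with earlier results of these data known. Alternatives were DESeq2 1.42.0 (poscounts size factors), limma-voom 3.58.1, TMM factors, other totals, other filters, fewer libraries, a replicate block and each library left out. DESeq2 gave 225 genes no adjusted p. A planned description of protein sequences was not run, and no sequences were used here.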

Additional observations from a re-analysis of the deposited data

How the results depend on the processing

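The edgeR count of genes past the threshold between the stages, 0 higher and 0 lower, was 4 and 47 with DESeq2, 6 and 2 with limma-voom, and 1 and 2 when only the 6 libraries were fitted. It was 0 and 0 with TMM factors, other totals, either other filter and Cdk11b out of the totals. Left-out libraries gave 0 higher throughout and 0 to 2 lower, the 2 (Top1 and Anp32b) without early 2-cell replicate 2. With the replicate number as a block, 0 genes were called in the fit of 15 libraries (smallest adjusted p 0.529), and 1 higher and 2 lower in the 6 libraries. Whether the numbers pair the libraries is not stated. Deviations of same-numbered libraries correlated at -0.0184, -0.0145 and -0.0241, and those of other numbers at -0.032 to 0.0461. Values this near 0 in sparse libraries cannot settle the pairing. The count for the difference between the Het and KO arms, 0, was 1 without the low-count filter and 0 to 3 with a library left out, the 3 without KO early 2-cell replicate 2.

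Genes without overlap were 13 higher and 75 lower with TMM factors, and 31 to 52 higher and 55 to 121 lower with a library left out, when fewer libraries must be separate. Composition differences (log2, early 2-cell minus zygote) with a library left out ran from -0.00526 to 0.102 for the rRNA share, -1.09 to 0.271 for the protein-coding share, -0.292 to 0.249 for the share of the 10 leading mRNAs and -0.255 to 0.324 for genes at a common depth. Among named genes the sign turned for Atad2 with TMM factors (-0.13) and for Lars2 with a block in the 6 libraries (-0.38). With a library left out the log2 fold change ran from -2.48 to 4.26 for Lars2, -0.45 to 3.98 for Abcf1 and -0.80 to 0.050 for Metap2. The cause of these changes was not tested. Depth limits what can be seen: a gene under 0.283% can be missed in the shallowest library, and 144 tested genes had no early 2-cell count, 108 of them with a zygote mean at or above the summed floor of 0.0286%.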
